A study of Mus musculus with 38 samples.

Results

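The signalling set of anti-Müllerian hormone (AMH), inhibin and activin was followed in prepubertal mouse testes of 6 genotypes. Its members were chosen by name, as probe sets whose annotated gene was Amh, Inha, Inhba, Inhbb, Fst, Amhr2, Bmpr1a, Acvr1b, Acvr2a or Acvr2b. These 10 genes had 24 probe sets of the 45101 on the array, which carried 18194 genes with a probe set of their own. Of the 24 probe sets, 17 lay above the low-signal limit (a group mean over 10 on the linear scale) in all 11 groups, 2 in some of the groups and 5 in none. Each of the 10 genes was represented by its brightest probe set, and all 10 of these passed in all 11 groups.

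Total RNA of whole testes from 38 single males was hybridised to 38 Affymetrix arrays. The strains were MSM (an inbred strain derived from Mus musculus molossinus), B6-ChrXMSM (a B6 male with the whole X chromosome of MSM), B6-ChrXTMSM (B6 with the MSM distal X chromosome only), and the F1 males of B6-ChrXTMSM mothers and B6-Chr1MSM fathers, which carry the distal MSM X chromosome and are heterozygous for MSM chromosome 1. A further strain is labelled XS39-tel. It is likely the study's X congenic strain taken at 5 dpp, which has MSM sequence on a more distal X interval alone in the B6 background, although the text does not use that label. B6 was the control strain. Males were taken at 7 and 5 days postpartum (dpp), XS39-tel at 5 dpp only. Each group held 3 males, except the F1 at 7 dpp with 8. The labels name no treatment, and the strains differ from B6 along whole chromosomes, long chromosome segments or, in MSM, the whole genome. The comparisons ask whether the MSM X chromosome changes gene expression before meiosis, and whether MSM chromosome 1 alters that change.

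AMH, the inhibins and the activins belong to the transforming growth factor beta family. In the immature testis they are mainly products of the Sertoli cell, the somatic cell that carries the germ cells. AMH makes the Müllerian ducts of the male fetus regress, and it signals through the type 2 receptor AMHR2 with type 1 partners such as BMPR1A. The inhibin alpha subunit pairs with a beta subunit to form inhibins, which restrain pituitary secretion of follicle-stimulating hormone, whereas pairs of beta subunits form activins, which signal through ACVR2A or ACVR2B and ACVR1B to SMAD proteins. Follistatin binds activins and blocks them.

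Inha lies on chromosome 1, Amhr2 on chromosome 15 and Inhba on chromosome 13. These 3 are the members with a motif match in the search below, so the 250 bases before their annotated transcript start are given. They are RefSeq sequences on build GRCm38.p6, plus strand, from chr1:75507359-75507608 for Inha, chr15:102445117-102445366 for Amhr2 and chr13:16011601-16011850 for Inhba, with motif matches in capitals.
Inha: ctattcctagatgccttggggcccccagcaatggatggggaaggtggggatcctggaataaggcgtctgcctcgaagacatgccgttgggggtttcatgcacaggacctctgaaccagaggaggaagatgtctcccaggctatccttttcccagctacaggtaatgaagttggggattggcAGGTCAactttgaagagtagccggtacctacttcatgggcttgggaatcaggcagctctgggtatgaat
Amhr2: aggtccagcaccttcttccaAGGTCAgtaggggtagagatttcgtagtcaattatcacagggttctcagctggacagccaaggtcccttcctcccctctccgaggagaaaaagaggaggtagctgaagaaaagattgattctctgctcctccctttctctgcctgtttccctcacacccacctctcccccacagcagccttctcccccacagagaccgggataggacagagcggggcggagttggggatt
Inhba: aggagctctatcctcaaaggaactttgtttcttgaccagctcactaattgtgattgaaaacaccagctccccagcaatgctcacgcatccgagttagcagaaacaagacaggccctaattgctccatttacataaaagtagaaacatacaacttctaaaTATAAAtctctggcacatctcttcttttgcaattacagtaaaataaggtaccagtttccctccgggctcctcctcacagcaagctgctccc
The promoter table held 8 of the 10 members, with neither Amh nor Fst among them. Both strands were searched for 4 motifs. These were the half-site AGGTCA, which the Sertoli and Leydig cell factor SF-1 (product of Nr5a1) can bind, the GATA factor site AGATAA, the cAMP response element TGACGTCA and the TATA box TATAAA. The half-site began 69 bases before the start of Inha and 230 bases before that of Amhr2, and the TATA box motif began 91 bases before that of Inhba. The other 5 members had none of the 4 motifs in this window, and no 2 matches overlapped. Among 32851 promoters of the same length, 14.0% held AGGTCA, 9.99% held AGATAA, 1.55% held TGACGTCA and 12.4% held TATAAA. A match is a description of the letters and not a binding site.

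All values below are log2 levels or log2 differences of robust multichip average (RMA) signal. A call means an adjusted p under 0.05 in limma with Benjamini-Hochberg adjustment over all probe sets tested and a difference of at least 1.5-fold, which is 0.585 on the log2 scale. Levels of different probe sets are not comparable with each other. The members differed in how far the group means spread. Amh had the widest range of group means, 2.17, followed by Inhba with 1.72, whereas Acvr2a had 0.27 and Bmpr1a 0.30. The SD within groups, pooled over the 11 groups, lay between 0.0709 for Bmpr1a and 0.263 for Amh among the representative probe sets, except 0.55 for Fst.

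The labelled tissue was checked against its marker genes. The mean log2 level of 14 Sertoli cell genes (members left out) lay between 6.81 and 7.23 over the 38 arrays, whereas that of 17 germ cell genes lay between 3.19 and 6.40. At 7 dpp the germ cell mean was 4.45 to 4.83 in B6-ChrXMSM, 4.54 to 5.27 in B6-ChrXTMSM, 5.11 to 6.21 in the F1 and 6.04 to 6.12 in B6. Adipose tissue genes differed between arrays of the same group, with means of 2.56 to 5.50 among the 3 B6 males at 5 dpp. The mean level of 4 Leydig cell genes lay between 5.98 and 7.84, of 6 peritubular myoid genes between 5.50 and 6.82, of 6 endothelial genes between 3.47 and 4.71 and of 6 macrophage genes between 4.05 and 4.93. All 5 epididymal genes were under the low-signal limit on every array, and the mean of 2 erythroid genes was 1.59 to 2.60. In whole testes, fewer cells of a type and less RNA per cell cannot be told apart.

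Inhba, the activin beta A subunit, was called lower at 7 dpp than at 5 dpp in 4 of 5 strains. At 7 dpp the B6 males had log2 levels of 6.80, 7.04 and 6.86, against 8.11, 7.98 and 8.14 at 5 dpp. The groups did not overlap, and Inhba fell by 1.18 (SE 0.0771, adjusted p = 5.59e-05), which is 2.26-fold. In MSM the levels were 6.47, 6.71 and 6.72 at 7 dpp and 7.63, 7.66 and 7.69 at 5 dpp, a fall by 1.03 (SE 0.0852, adjusted p = 5.92e-05). In B6-ChrXMSM they were 7.68, 7.37 and 7.59 at 7 dpp and 8.52, 8.24 and 8.31 at 5 dpp, a fall by 0.81 (SE 0.104, adjusted p = 0.00506). In all 5 strains with both ages, every male at 7 dpp lay below every male of the same strain at 5 dpp.

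The F1 males ran from 6.76 to 7.54 with a median of 7.30 at 7 dpp, and had 7.73, 8.38 and 8.14 at 5 dpp, a fall by 0.84 (SE 0.171, adjusted p = 0.00779). Without the second F1 male at 5 dpp the difference was -0.69 with an adjusted p of 0.0602. B6-ChrXTMSM males had 7.69, 7.57 and 7.59 at 7 dpp and 7.79, 7.93 and 7.80 at 5 dpp, a difference of -0.22 (SE 0.0613, adjusted p = 0.067) that was not called. The strain-by-age term, which compares the age change in B6-ChrXTMSM with that in B6, was 0.95 (SE 0.102, adjusted p = 0.000484) and passed. In the same term 15 of 16 germ cell genes were lower, and between the ages none of 15 germ cell genes was called in B6-ChrXTMSM, against 15 of 16 higher in B6, whose part in the Inhba values was not tested. The Inhba term was 0.37 (adjusted p = 0.152) for B6-ChrXMSM, 0.33 (adjusted p = 0.75) for the F1 and 0.15 (adjusted p = 0.344) for MSM, none of them called.

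Inhba was the only member called between an X chromosome substitution strain and B6, at 7 dpp and by its representative probe set. The levels of B6-ChrXMSM and B6-ChrXTMSM at that age, given above, lay above all 3 B6 males. The difference from B6 was 0.65 in B6-ChrXMSM (SE 0.0948, adjusted p = 0.00129, 1.57-fold) and 0.72 in B6-ChrXTMSM (SE 0.0747, adjusted p = 0.000504, 1.64-fold). Without the first B6-ChrXMSM male its adjusted p was 0.00506, but the difference of 0.58 lay under 1.5-fold. The germ cell list moved in the same comparisons, with 15 of 16 genes tested lower in both strains and none higher, and its part in the Inhba difference was not tested. At 5 dpp the Inhba difference was 0.28 in B6-ChrXMSM, 0.11 in XS39-tel, 0.01 in the F1 and -0.24 in B6-ChrXTMSM, with adjusted p from 0.112 to 0.983.

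Ordered by group mean, Inhba was lowest in MSM (6.63) and B6 (6.90) at 7 dpp, then the F1 (7.24), B6-ChrXMSM (7.55) and B6-ChrXTMSM (7.62) at 7 dpp, MSM (7.66), B6-ChrXTMSM (7.84), B6 (8.08), the F1 (8.08) and XS39-tel (8.18) at 5 dpp, and highest in B6-ChrXMSM at 5 dpp (8.36). Neighbours in this order overlapped, except MSM and B6 at 7 dpp (difference -0.27, adjusted p = 0.0352, under 1.5-fold), B6-ChrXTMSM and B6 at 5 dpp (-0.24, adjusted p = 0.13), and MSM and B6-ChrXTMSM at 5 dpp, which were not tested against each other. In the F1 at 7 dpp, Inhba was 0.34 above B6 (adjusted p = 0.17) and -0.37 against B6-ChrXTMSM (adjusted p = 0.177). No F1 male reached the lowest B6-ChrXTMSM male. The second Inhba probe set was under the low-signal limit in all 11 groups and gave no test.

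**Figure D1:**
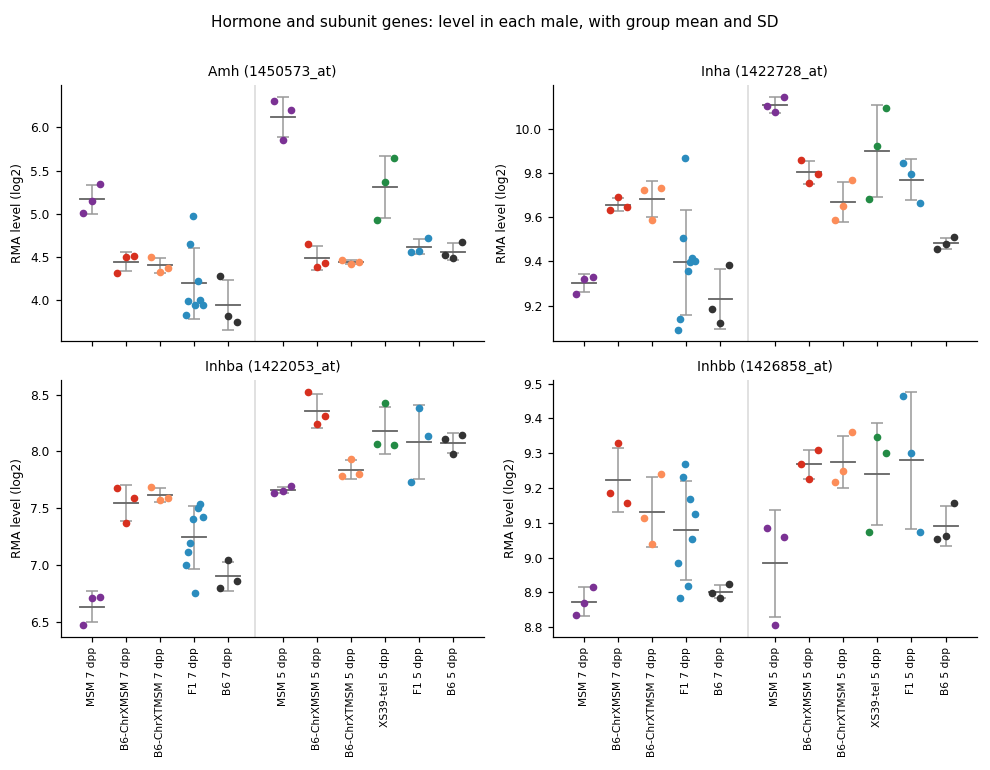
Log2 RMA level (y axis) of Amh, Inha, Inhba and Inhbb in each male (points) by strain and age (x axis, 7 dpp left of the line and 5 dpp right), with group mean (bar) and SD (whiskers). MSM stands highest for Amh at both ages, and Inhba at 7 dpp is between 7.37 and 7.69 in B6-ChrXMSM and B6-ChrXTMSM, above the 3 B6 males.

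Amh, the hormone gene, was highest in MSM at each age. MSM males had log2 levels of 5.01, 5.15 and 5.34 at 7 dpp, against 4.28, 3.82 and 3.75 in B6, and 6.30, 5.86 and 6.20 at 5 dpp, against 4.52, 4.49 and 4.68 in B6. The groups did not overlap at either age. Amh was 1.22 higher in MSM at 7 dpp (SE 0.144, adjusted p = 0.000191, 2.32-fold) and 1.56 higher at 5 dpp (SE 0.118, adjusted p = 1.59e-05, 2.94-fold). It also fell with age, by 0.95 in MSM (SE 0.129, adjusted p = 0.000474) and by 0.61 in B6 (SE 0.135, adjusted p = 0.00786). The age call in B6 was lost on fold size without the third B6 male at 5 dpp (-0.55) or without the second (-0.55) or the third (-0.51) at 7 dpp. The strain-by-age term for MSM was -0.34 (adjusted p = 0.215), not called. Between MSM and B6 the germ cell list had 5 of 16 genes higher and 1 lower at 7 dpp and 11 of 16 higher at 5 dpp, and the Sertoli cell list 1 of 13 higher and 2 lower at 7 dpp and 1 of 12 higher and 1 lower at 5 dpp. Their part in the MSM differences was not tested.

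In the X chromosome substitution strains Amh had nearly the same level at both ages. B6-ChrXMSM males had 4.32, 4.51 and 4.51 at 7 dpp and 4.65, 4.39 and 4.43 at 5 dpp, and B6-ChrXTMSM males 4.50, 4.33 and 4.38 at 7 dpp and 4.47, 4.42 and 4.45 at 5 dpp. Their age differences of -0.05 and -0.04 had adjusted p of 0.783 and 0.665. At 7 dpp all 6 of these males lay above the 3 B6 males, by 0.50 for B6-ChrXMSM (adjusted p = 0.0188) and 0.45 for B6-ChrXTMSM (adjusted p = 0.0255), both under 1.5-fold and so not called. Without the first B6 male at 7 dpp, the highest of the 3, both passed, at 0.66 (adjusted p = 0.00168) and 0.62 (adjusted p = 0.00242). The strain-by-age term was 0.57 in both strains, with an adjusted p of 0.0962 for B6-ChrXMSM and 0.028 for B6-ChrXTMSM, under 1.5-fold in each.

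XS39-tel had the largest Amh difference from B6 outside MSM. Its 3 males had 4.93, 5.37 and 5.65, above the B6 males at 5 dpp, but the difference of 0.75 (SE 0.176) had an adjusted p of 0.103. At 5 dpp the Amh means were 4.49 in B6-ChrXMSM, 4.45 in B6-ChrXTMSM and 4.62 in the F1, against 4.56 in B6, with no call. Among the F1 males at 7 dpp, Amh ran from 3.83 to 4.98 with a median of 4.001, a span that took in the 3 B6-ChrXTMSM males and 1 of the 3 B6 males. The 2 F1 males with the highest Amh, 4.66 and 4.98, also had the highest Inha, 9.51 and 9.87, and the lowest germ cell means, 5.30 and 5.11. Their Inhba levels, 7.20 and 7.41, were not the highest, which was 7.54. The part of the germ cell list in these values was not tested. The F1 did not differ from B6 in Amh by a called amount (0.25 at 7 dpp, adjusted p = 0.503).

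Inha, the alpha subunit, had its calls in MSM. At 5 dpp MSM males had 10.10, 10.08 and 10.15, against 9.46, 9.48 and 9.51 in B6, a difference of 0.63 (SE 0.059, adjusted p = 4.81e-05, 1.54-fold) that lay just past the fold limit. At 7 dpp MSM males had 9.25, 9.32 and 9.33, against 9.18, 9.12 and 9.38 in B6, and the groups overlapped. Inha thus fell by 0.81 with age in MSM (SE 0.0686, adjusted p = 6.66e-05), against a difference of -0.25 in B6 (adjusted p = 0.0227) that was under 1.5-fold. The strain-by-age term was -0.55 (SE 0.0951, adjusted p = 0.0011), also under 1.5-fold.

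Every male of the X chromosome substitution strains exceeded every B6 male of its age in Inha, with no call. At 5 dpp every male of MSM, XS39-tel and the F1 also exceeded every B6 male. How many of all probe sets were without overlap was not counted. At 7 dpp the levels were 9.63, 9.69 and 9.65 in B6-ChrXMSM and 9.73, 9.59 and 9.73 in B6-ChrXTMSM, above B6 by 0.43 (adjusted p = 0.00299) and 0.45 (adjusted p = 0.00348). At 5 dpp the differences were 0.32 in B6-ChrXMSM (adjusted p = 0.0221), 0.19 in B6-ChrXTMSM (adjusted p = 0.156), 0.42 in XS39-tel (adjusted p = 0.128) and 0.29 in the F1 (adjusted p = 0.119). The mean of the Sertoli cell list at 7 dpp was 7.13 to 7.20 in B6-ChrXMSM and 7.07 to 7.14 in B6-ChrXTMSM, against 6.91 to 7.05 in B6, with no overlap. At 5 dpp, 13 of 15 germ cell genes were lower in B6-ChrXMSM and none of 15 was called in B6-ChrXTMSM. The part of these lists in the Inha values was not tested. Inha and Inhbb lie on chromosome 1, so their F1 values come from an MSM and a B6 copy. None of the member probe sets is on the study's list of polymorphic probe sets, but that list covers chromosomes 1 and X only, and for the other 8 members the part of MSM sequence differences under the probes was not tested.

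Inhbb, the activin beta B subunit, had no call by limma in any of the 20 comparisons, and its representative probe set had an unadjusted p under 0.05 in 5. At 7 dpp the B6-ChrXMSM males had 9.18, 9.33 and 9.16, against 8.90, 8.89 and 8.92 in B6. That difference was 0.32 (adjusted p = 0.00489), and 0.23 in B6-ChrXTMSM (adjusted p = 0.0211), both under 1.5-fold. The second Inhbb probe set gave 0.22 for each strain. Fst, the follistatin gene, was the most scattered member. In MSM its log2 levels were 3.76, 2.85 and 4.68 at 7 dpp and 2.90, 5.52 and 3.04 at 5 dpp, whereas B6 males had 4.19, 4.14 and 4.18 at 7 dpp and 4.37, 5.31 and 4.25 at 5 dpp. MSM males thus stood both above and below B6. The difference between MSM and B6 at 5 dpp was -0.83 and not called, but without the second MSM male it was -1.68 (adjusted p = 0.00226). At 7 dpp it was -0.41 and not called, but -0.86 (adjusted p = 0.015) without the third MSM male. The MSM males left at 5 dpp, 2.90 and 3.04, lay under the low-signal limit (log2 3.32). Of those left at 7 dpp, the male at 2.85 did too. The size of these differences is thus set against background. In the F1 the second Fst probe set, 1421365_at, ran from 3.27 to 3.88 at 7 dpp and had 4.29, 4.20 and 5.07 at 5 dpp, without overlap. It fell by 0.93 with age (SE 0.18, adjusted p = 0.00642), while the representative probe set gave -0.58 (adjusted p = 0.0866) and was not called.

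Amhr2, the AMH receptor, was called higher at 7 dpp in B6 and MSM. In B6 its log2 levels were 9.82, 9.67 and 9.88 at 7 dpp and 9.05, 9.03 and 9.15 at 5 dpp, a rise of 0.72 (SE 0.0674, adjusted p = 0.000197). Its other 2 probe sets, 1457021_x_at and 1427989_at, rose by 0.74 and 0.64 (adjusted p = 0.000241 and 0.00115). In MSM the representative probe set had 8.99, 9.07 and 9.11 at 7 dpp and 8.60, 8.20 and 8.56 at 5 dpp, a rise of 0.61 (SE 0.111, adjusted p = 0.00215). The next MSM probe set rose by 0.74 (adjusted p = 0.00138), but the third, 1427989_at, gave 0.01 (adjusted p = 0.894). In B6-ChrXMSM and B6-ChrXTMSM the age differences were 0.47 (adjusted p = 0.00867) and 0.37 (adjusted p = 0.00822), under 1.5-fold, and in the F1 0.21 (adjusted p = 0.324).

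Amhr2 was lower in MSM than in B6 at both ages, and no MSM male overlapped a B6 male of the same age in the representative probe set. The fall was 0.73 at 7 dpp (SE 0.0716, adjusted p = 6.6e-05, 1.66-fold) and 0.62 at 5 dpp (SE 0.111, adjusted p = 0.00143, 1.54-fold). Probe set 1457021_x_at gave -0.95 at each age (adjusted p = 4.28e-05 and 0.000213, 7 dpp first). The third probe set gave -0.53 at 7 dpp (adjusted p = 0.000424, under 1.5-fold) and 0.09 at 5 dpp (adjusted p = 0.369), so the probe sets of Amhr2 disagreed at 5 dpp. The ending _x_at marks a probe set with some probes that can match other transcripts. Thus Amh and its receptor gene had opposite signs in MSM, with the hormone gene higher at both ages. The receptor gene was lower by all 3 probe sets at 7 dpp, the third under 1.5-fold, and by 2 of 3 at 5 dpp. In the X chromosome substitution strains at 7 dpp all 3 Amhr2 probe sets differed from B6 by -0.27 to -0.21, none of them called.

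**Figure D2:**
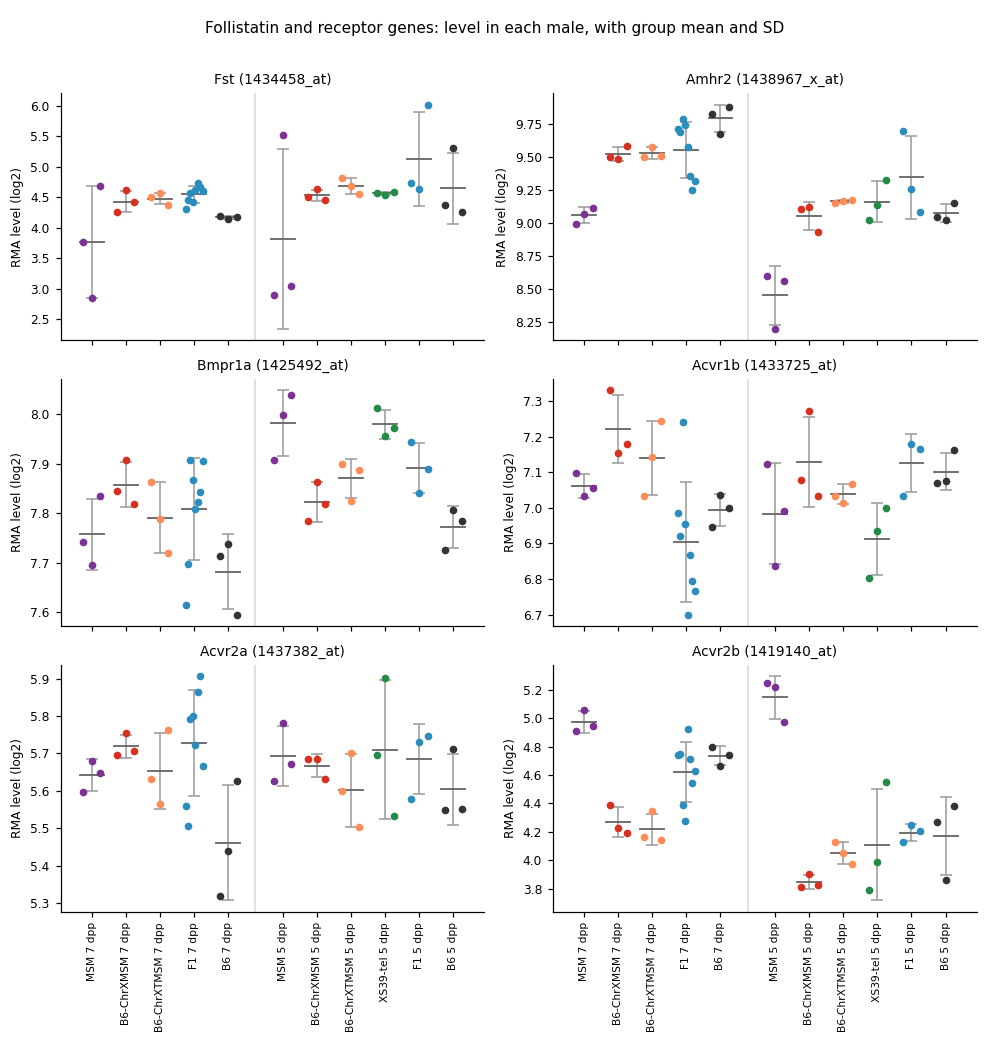
Log2 RMA level (y axis) of Fst and the 5 receptor genes in each male (points) by strain and age (x axis, 7 dpp left of the line and 5 dpp right), with group mean (bar) and SD (whiskers). Amhr2 in MSM is below B6 at both ages, Acvr2b in MSM is above B6 at both, and Fst in MSM runs from 2.85 to 5.52.

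Acvr2b, a type 2 activin receptor gene, was the other receptor gene that was called. MSM males had 5.25, 5.22 and 4.97 at 5 dpp, against 4.27, 3.86 and 4.38 in B6, and Acvr2b was 0.98 higher (SE 0.14, adjusted p = 0.000439, 1.97-fold). At 7 dpp MSM males had 4.91, 5.06 and 4.95, against 4.80, 4.67 and 4.74 in B6, a difference of 0.24 (adjusted p = 0.0151) under 1.5-fold. The age difference was 0.57 in B6 (adjusted p = 0.00792), under 1.5-fold, and -0.17 in MSM. The strain-by-age term was -0.74 (SE 0.167, adjusted p = 0.00546) and passed. The second Acvr2b probe set, 1439856_at, gave 0.30 at 7 dpp (adjusted p = 0.00321), 0.53 at 5 dpp (adjusted p = 0.000199) and -0.24 for the strain-by-age term (adjusted p = 0.0412), all under 1.5-fold. Its B6 mean at 5 dpp, 3.12, lay under the low-signal limit, so it was kept for testing at that age by MSM (3.66) alone. Its age difference in MSM was 0.09 (adjusted p = 0.302), opposite in sign to that of the representative probe set. Outside B6 and MSM the representative probe set had age differences of 0.42 in B6-ChrXMSM (adjusted p = 0.013), 0.42 in the F1 (adjusted p = 0.0271) and 0.16 in B6-ChrXTMSM (adjusted p = 0.181), under 1.5-fold and with no overlap between the ages in these 3 strains.

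At 7 dpp Acvr2b pointed the other way in the X chromosome substitution strains. B6-ChrXMSM males had 4.39, 4.23 and 4.19 and B6-ChrXTMSM males 4.17, 4.34 and 4.14, below all 3 B6 males, with differences of -0.47 (adjusted p = 0.0015) and -0.52 (adjusted p = 0.00124). Both were under 1.5-fold. The germ cell mean was also lower in these strains at 7 dpp, 4.45 to 4.83 in B6-ChrXMSM and 4.54 to 5.27 in B6-ChrXTMSM, against 6.04 to 6.12 in B6. Its part in the Acvr2b values was not tested. F1 males ran from 4.27 to 4.92 with a median of 4.67, and their difference from B6-ChrXTMSM was 0.40 (adjusted p = 0.0982).

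Acvr1b, Acvr2a and Bmpr1a had no call by limma in any of the 20 comparisons, and an unadjusted p under 0.05 in 5, 2 and 4 of them by the representative probe sets. Acvr1b (the type 1 activin receptor) and Acvr2a stayed within 6.70 to 7.33 and 5.32 to 5.91 over the 38 arrays, each by its representative probe set. The 2 Acvr2a probe sets disagreed in the X chromosome substitution strains at 7 dpp, with 0.26 and -0.47 in B6-ChrXMSM and 0.19 and -0.52 in B6-ChrXTMSM. The second of these, 1451004_at, had a range of group means of 1.03, against 0.27 for the representative one. With age in MSM it gave 0.5845 (adjusted p = 0.00339), just under the fold limit, and it was called with array medians subtracted (0.5864) and in 3 of the fits that left out 1 male (0.61 to 0.70). Of the 6 Bmpr1a probe sets, 4 were tested, and their largest difference between MSM and B6 was 0.51 at 7 dpp (1425494_s_at, adjusted p = 0.000336), under 1.5-fold.

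The members' counts were read against the share of all probe sets called. Between MSM and B6, 3 of 19 member probe sets were called at 7 dpp, where 17.3% of all probe sets were, and 5 of 19 at 5 dpp, where 28.2% were. Between the X chromosome substitution strains and B6 at 7 dpp, 1 of 19 was called in each, where 6.08% of all were in B6-ChrXMSM and 5.72% in B6-ChrXTMSM. The members' share was thus near that of all probe sets in these comparisons. The median difference over the member probe sets at 7 dpp was 0.07 in MSM, 0.08 in B6-ChrXMSM and 0.04 in B6-ChrXTMSM, against 0.10, 0.01 and 0.02 over all. Over the 10 member genes, each by its representative probe set, it was 0.07, 0.26 and 0.21 in the same order. Without a fold limit, 17 of 19 member probe sets had an unadjusted p under 0.05 in limma in B6-ChrXMSM, against 8479 of 17112 of all. In B6-ChrXTMSM it was 12 of 19, against 8769 of 17119 of all. Both counts include the called Inhba.

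No member was called by limma in the remaining strain comparisons. At 5 dpp, 18 member probe sets were tested in each. An unadjusted p under 0.05 was found for 8 in B6-ChrXMSM (3853 of 16986 of all probe sets), 3 in B6-ChrXTMSM (3440 of 16957), 6 in XS39-tel (3134 of 17100) and 2 in the F1 (2763 of 16740). The share of all probe sets called was 1.67%, 0.301%, 0.649% and 0.538% in these 4 comparisons in the same order. The F1 at 7 dpp had 5 of 19 with an unadjusted p under 0.05 against B6 (4355 of 16744 of all), and 1.72% of all were called. Against B6-ChrXTMSM the F1 had 7 of 19 at 7 dpp (3402 of 16674 of all) and 2 of 18 at 5 dpp (1804 of 16634 of all), with 0.318% and 0.0481% of all called.

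**Figure D3:**
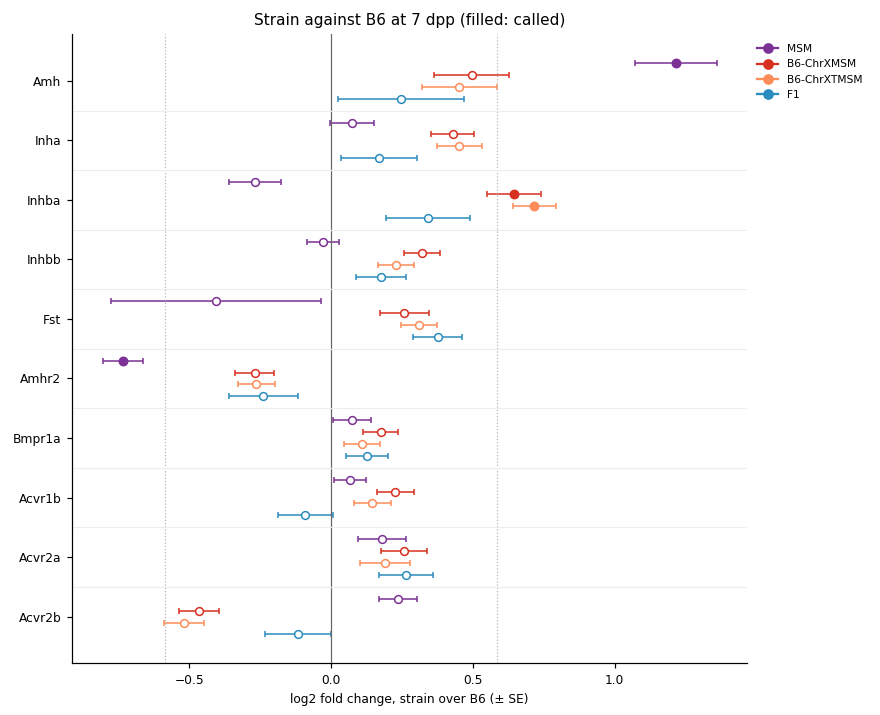
Log2 fold change of each strain over B6 at 7 dpp (x axis, with SE) for the 10 members (y axis), coloured by strain. Filled points are called, dotted lines mark 1.5-fold, and Inhba is the filled point for B6-ChrXMSM (0.65) and B6-ChrXTMSM (0.72).

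With age, 5 of 19 member probe sets were called in B6, where 8.33% of all were, and 5 of 18 in MSM, where 14.7% were. In the F1, 2 of 19 were called (5.56% of all), in B6-ChrXMSM 1 of 18 (2.48% of all), and in B6-ChrXTMSM 0 of 18 (0.839% of all), with 5 of those 18 at an unadjusted p under 0.05 in limma (4772 of 16929 of all). The 5 called probe sets stood for 3 genes in B6 and 4 in MSM, and the F1 count was 1 with the filter at 100 or without the second male at 5 dpp. The called genes were Inhba, Amh and Amhr2 in B6, the same 3 and Inha in MSM, Inhba and Fst in the F1, and Inhba in B6-ChrXMSM. Strain-by-age terms were called for 2 of 19 in MSM (12.0% of all), 1 of 19 in B6-ChrXTMSM (5.18% of all), and none in B6-ChrXMSM (1.40% of all) or the F1 (0.0116% of all), each with 3 of 19 at an unadjusted p under 0.05 in limma (3844 of 17476 and 1126 of 17177 of all). All comparisons of a strain with B6 at an age share the same 3 B6 males, and the age and strain comparisons share males too.

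**Figure D4:**
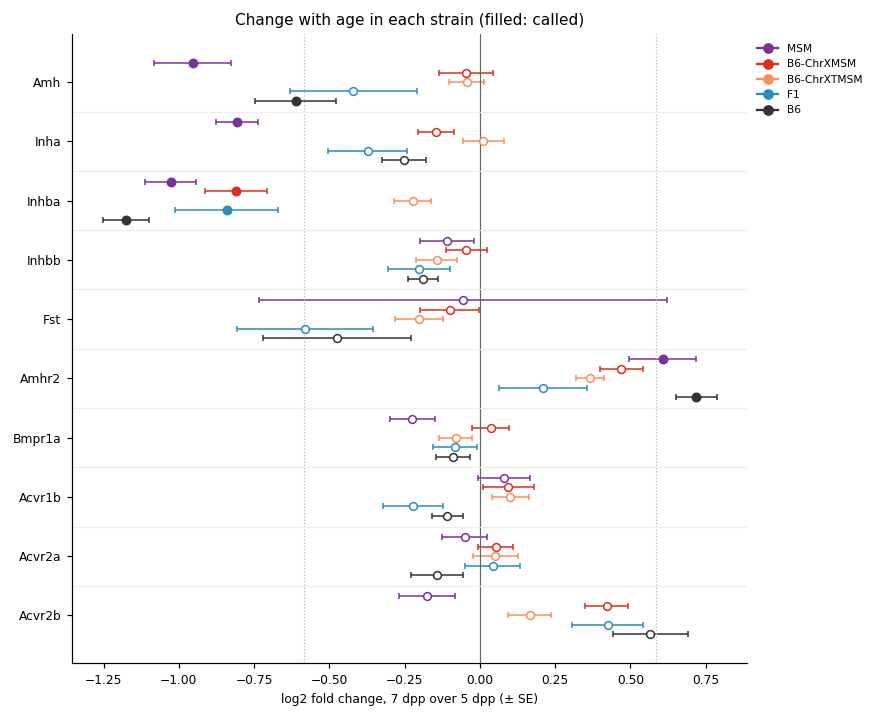
Log2 fold change of 7 dpp over 5 dpp (x axis, with SE) for the 10 members (y axis), coloured by strain. Filled points are called and dotted lines mark 1.5-fold. Inhba is filled in 4 strains and is -0.22 in B6-ChrXTMSM.

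Other genes of the pathway were read from 6 lists of 87 genes in all, of which 81 were on the array. Between MSM and B6, 6 genes of 53 tested were higher and 3 lower at 7 dpp, and 12 of 52 were higher and 4 lower at 5 dpp, near the 17.3% and 28.2% of all probe sets called. At 7 dpp the largest differences were in Bmp5 (1.83, adjusted p = 6.65e-06), Id4 (1.28, adjusted p = 7.75e-06) and Bmp6 (1.26, adjusted p = 8.9e-06), which were higher, and Ccn2 (-1.22, adjusted p = 4.84e-05), which was lower. The median difference over the list genes tested was 0.08 at 7 dpp and 0.11 at 5 dpp, against 0.10 and 0.08 over all probe sets. Bmp5 and Bmp6 encode bone morphogenetic proteins, and Id4 and Ccn2 are targets of the family's signalling. In B6 both Bmp genes lay under the low-signal limit at 7 and 5 dpp, with means of 2.89 and 3.27 for Bmp5 and 2.69 and 3.18 for Bmp6. They were kept for testing by their MSM level alone, so the size of their differences is set against background. At 5 dpp Bmp5 (1.93, adjusted p = 8.28e-06) and Bmp6 (1.75, adjusted p = 1.66e-06) were again higher. Gata4 (1.41, adjusted p = 7.66e-05) was also higher and Sox9 (-1.77, adjusted p = 5.46e-06) lower, both genes of transcription factors that act on the Amh promoter and both also in the Sertoli cell list. As for most members, the part of MSM sequence differences under the probes of these pathway genes was not tested.

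With age, 8 of 53 pathway genes were called in MSM (14.7% of all probe sets) and 7 of 51 in B6 (8.33% of all). The list of regulators of Amh and the inhibin subunits had 2 of 14 genes higher and 3 lower in MSM, and 1 of 13 higher and 1 lower in B6. In MSM, among all the lists, Gata4 fell by 1.85 (adjusted p = 3.59e-05), Nr5a1 fell by 1.06 (adjusted p = 2.9e-05), Bmp6 fell by 0.97 (adjusted p = 0.000134) and Sox9 rose by 1.41 (adjusted p = 7.23e-05). In all, 2 of the 53 were higher and 6 lower, and their median was -0.19, against 0.05 over all probe sets. In B6 only Gata1, which is also a gene of the Sertoli cell, rose (1.24, adjusted p = 6.81e-05). Its B6 mean at 5 dpp, 2.94, lay under the low-signal limit, so it was kept for testing by 7 dpp alone. In the same comparison 6 of 51 fell, led by Tgfb2 (-1.09, adjusted p = 0.00352), Zfpm2 (-0.72, adjusted p = 0.00131) and Tgfbr2 (-0.71, adjusted p = 0.00116). The F1, where 5.56% of all probe sets were called, had 1 of 52 higher (Gata1, 0.66, adjusted p = 0.0205) and 2 lower (Ltbp1, -0.81, adjusted p = 0.00371, and Smad6, -0.76, adjusted p = 0.00687). Ltbp1, which encodes a protein that binds latent transforming growth factor beta, was the only gene called in B6-ChrXTMSM (-0.84, adjusted p = 0.00235, of 53), and it fell with Tgfb2 (-0.71, adjusted p = 0.00337) in B6-ChrXMSM (-0.72, adjusted p = 0.0103, of 51).

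Strain-by-age terms were called for 7 of 54 pathway genes in MSM, 3 higher and 4 lower, led by Gata4 (-1.60, adjusted p = 0.000112), Sox9 (1.12, adjusted p = 0.000452), Smurf1 (-0.74, adjusted p = 0.00656) and Nr5a1 (-0.71, adjusted p = 0.000194). The terms of B6-ChrXMSM and the F1 had none of 52 called by limma, with 20 and 5 at an unadjusted p under 0.05. In B6-ChrXTMSM, Esr1 was higher (0.64, adjusted p = 0.00186) and Gata1 lower (-0.79, adjusted p = 0.00246) of 53. At 5 dpp the Gata1 means of B6-ChrXTMSM (3.19) and B6 (2.94) both lay under the low-signal limit. Against B6 in the X chromosome substitution strains, the only pathway gene called was Gata1, on the X chromosome, in B6-ChrXMSM at 7 dpp (-0.87, adjusted p = 0.000263, of 50). Its mean in B6-ChrXMSM, 3.31, lay just under the low-signal limit, so it was kept for testing by B6 (4.18) alone. No pathway gene was called by limma in the other 8 strain comparisons without MSM, of which B6-ChrXTMSM against B6 at 7 dpp had 31 of 51 genes at an unadjusted p under 0.05 (8769 of 17119 of all probe sets) and the others 4 to 13. At 7 dpp the median over the list genes was 0.16 in B6-ChrXMSM and 0.11 in B6-ChrXTMSM, against 0.01 and 0.02 over all probe sets.

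**Figure D5:**
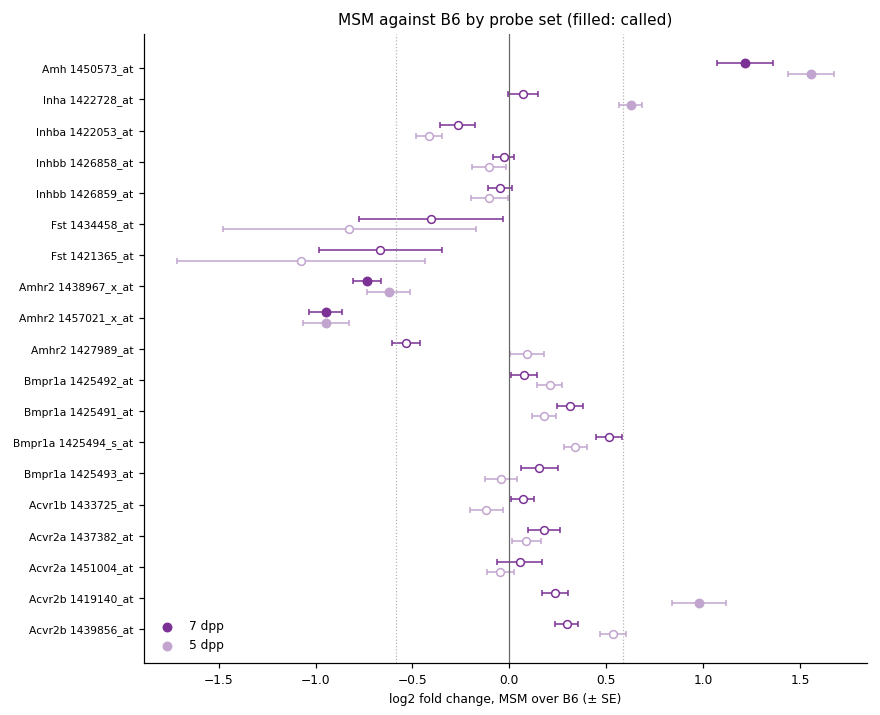
Log2 fold change of MSM over B6 (x axis, with SE) for each member probe set tested at both ages (y axis), dark at 7 dpp and pale at 5 dpp. Filled points are called. Amh is highest at both ages, and the 3 Amhr2 probe sets differ at 5 dpp, from -0.95 to 0.09.

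Over the 38 arrays, the genes whose levels ran most like a member's were ranked by Pearson r among 10104 genes, as a description only, since arrays of a group share their strain and age. Inhba was most like Fkbp7 (r = 0.95), Ccnd2 (0.936), Adamts16 (0.935), Lhx9 (0.933) and Lgals1 (0.922). Amh was most like Phpt1 (r = 0.958), Tmem132a (0.933), Dctn2 (0.933), Tubgcp2 (0.924) and Igfbp7 (0.924). For Inha they were Myo18a (r = 0.892), Nr5a1 (0.884), Miox (0.873), Mxra7 (0.862) and Ergic3 (0.86). For Inhbb they were Pdlim4 (r = 0.859), Plbd1 (0.844), Ahi1 (0.841), Greb1 (0.835) and Sh3tc2 (0.835).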

How the data were processed

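Log2 expression values were deposited by the authors, who hybridised whole-testis RNA of single males to Affymetrix mouse genome arrays and normalised them by RMA in GeneSpring GX (version not given in the sources used here). Array medians lay between 2.63 and 2.71. Of the probe sets, 34958 had 1 annotated gene, 932 several and 9211 none, and 1 probe set shared by Acvr2a and another gene was not used. Probe sets placed on an autosome or the X chromosome were kept, without 236 polymorphic X probe sets (and, in F1 comparisons, 651 of chromosome 1) listed by the study. Differences were fitted with limma 3.58.1 in R 4.3.3 (lmFit and eBayes, two-sided) on only the groups compared, keeping a probe set where the mean of 1 or more of the groups exceeded 10 on the linear scale (log2 3.32). Adjusted p-values (Benjamini-Hochberg) under 0.05 with a difference of 1.5-fold or more counted as calls. The procedure was tested on simulated data. The brightest probe set on average stood for a gene, called members are given per male, the 4 largest called pathway genes are named, and likeness gives the 5 highest Pearson r. The members and lists were chosen with earlier results of these data known. Lists of Leydig, myoid, endothelial, macrophage, adipose, erythroid and epididymal genes were also read. Alternatives were no filter, a filter of 100, medians subtracted, quantile normalization again, all probe sets, 1 fit over the 11 groups, a replicate block, and each male left out. The number of arrays limits the precision.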

Additional observations from a re-analysis of the deposited data

Results flagged for a closer look

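The strain-by-age term compares the change between 7 and 5 dpp in a strain with that in B6, and 3 member probe sets passed it in limma. For MSM these were Acvr2b (1419140_at, -0.74) and 1 of the 3 Amhr2 probe sets (1427989_at, -0.62, adjusted p = 0.00172), which had an age difference of 0.01 in MSM and a rise of 0.64 in B6. For B6-ChrXTMSM it was Inhba (1422053_at, 0.95). The other Amhr2 probe sets, 1438967_x_at and 1457021_x_at, were not called in the MSM term. In the germ cell list 10 of 16 genes were lower in the MSM term and 15 of 16 in that of B6-ChrXTMSM, and their part in these results was not tested.

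Among the 8 F1 males at 7 dpp, 1 of the 24 member probe sets had a male far from the others. In the second Inhba probe set (1458291_at) the highest male had a log2 level of 1.10 and the next 0.98, a gap of 0.573 of the range of the group, beyond Dixon's limit at the 95% level. Chance gives about 1 such group in 20, and the probe set was under the low-signal limit in all 11 groups.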

How the results depend on the processing

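The 26 calls of members were set against 7 alternatives and the omission of each male. On the same probe set 18 held under every alternative in which they could be tested, 8 were lost under at least 1 and none changed sign. By another probe set of the gene, Amhr2 gave 0.0925 for MSM against B6 at 5 dpp and 0.0003 for the strain-by-age term of MSM; the cause was not tested. With the filter at 100, Amh, Acvr2b (1419140_at) and Fst (1421365_at) could not be tested, so the called member probe sets became 3 (main 5) in MSM at 5 dpp, 1 (main 2) in the F1 age comparison and 1 (main 2) in the strain-by-age term of MSM. In 1 fit over the 11 groups XS39-tel had 1 (main 0; Amh 0.75, adjusted p = 0.0211). With array medians subtracted, the strain-by-age term of B6-ChrXTMSM had 2 (main 1; Amh 0.59, adjusted p = 0.0237), and the split of all calls in that of B6-ChrXMSM was 175 higher and 106 lower, against 124 and 121.

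Leaving out 1 male gave these member counts: MSM against B6, 3 to 5 at 7 dpp (5 without the third MSM male, through Fst) and 4 to 6 at 5 dpp; B6-ChrXMSM at 7 dpp 0 to 2; B6-ChrXTMSM at 7 dpp 1 to 2; age in B6 3 to 6, in MSM 4 to 6, in B6-ChrXMSM 1 to 2 and in the F1 1 to 2; strain-by-age terms, MSM 1 to 3, B6-ChrXMSM 0 to 1 and B6-ChrXTMSM 1 to 2. Besides the losses given with Amh and Inhba, fold size fell under the limit for Amhr2 (1438967_x_at) in MSM against B6 at 5 dpp without the second MSM male (-0.49) or the third B6 male (-0.58), and with age in MSM without the second male at 5 dpp (0.48) or the third at 7 dpp (0.58). For Amhr2 (1427989_at) this was so without the second B6 male at 5 dpp or the third at 7 dpp, with age in B6 (0.57 and 0.58) and in the strain-by-age term of MSM (-0.56 and -0.57). Inha in MSM at 5 dpp was 0.58 after quantile normalization again.

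Replicate numbers did not pair the males: correlations of their deviations lay between -0.352 and 0.354, and in 0 comparisons did all 3 pairs exceed 0.1. With a replicate block 7 member probe sets were called in MSM at 5 dpp (main 5, the added ones both of Fst), and the other member counts were unchanged. All calls with the block were 20 (main 51) in B6-ChrXTMSM at 5 dpp, 0 (111) in XS39-tel, 5 (90) in the F1 at 5 dpp, 44 (288) in the F1 at 7 dpp, and, for the F1 against B6-ChrXTMSM, 138 (53) at 7 dpp and 2 (8) at 5 dpp.

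Counts over all probe sets moved by more than 1.5 times as follows. The filter at 100, which tests fewer probe sets, gave 451, 169, 152 and 23 for MSM, B6-ChrXMSM, B6-ChrXTMSM and the F1 against B6 at 7 dpp (main 3059, 1041, 979 and 288), 913, 19, 7, 13 and 15 at 5 dpp with XS39-tel before the F1 (main 5043, 284, 51, 111 and 90), 3 and 3 for the F1 against B6-ChrXTMSM (main 53 and 8), 500, 66, 27, 176 and 290 with age in MSM, B6-ChrXMSM, B6-ChrXTMSM, the F1 and B6 (main 2576, 420, 142, 936 and 1434), and 422, 42, 137 and 0 for the strain-by-age terms (main 2196, 245, 903 and 2). The fit over 11 groups gave 411 in XS39-tel, 164 and 657 in the F1 at 5 and 7 dpp, 70 and 415 for the F1 against B6-ChrXTMSM, and 7, 453 and 10 for the strain-by-age terms of B6-ChrXMSM, B6-ChrXTMSM and the F1. All probe sets of the array gave 90 in B6-ChrXTMSM and 156 in the F1 at 5 dpp, and 26 and 139 for the F1 against B6-ChrXTMSM at 5 and 7 dpp. No filter gave 67 in XS39-tel. Without 1 male the count ranged from 1 to 373 in XS39-tel, from 16 to 90 in B6-ChrXTMSM at 5 dpp, from 146 to 365 in B6-ChrXMSM at 5 dpp, from 55 to 548 and from 15 to 129 in the F1 at 7 and 5 dpp, from 17 to 322 and from 1 to 23 for the F1 against B6-ChrXTMSM at 7 and 5 dpp, from 420 to 1209 with age in the F1, from 147 to 327 for the strain-by-age term of B6-ChrXMSM and from 0 to 9 for that of the F1.

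With 3 males in all groups but 1, signal over background limits Amh, Fst and Acvr2b, whose levels lie nearest the low-signal limit among the representative probe sets.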
